A study of Mus musculus with 35 samples.

Results

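The TREM2 axis and 7 genes of activated microglia were followed in mouse hippocampus: Trem2, Tyrobp, Axl, Itgax, Cst7, Spp1, Gpnmb, Cd9 and Cd63. They are 9 of the 32285 genes in the count tables and were chosen by name, with earlier results of these data known. All 9 passed the filter on low counts in every fit below. The filter keeps a gene by the libraries where it is high, so some genes passed with few or no counts in other groups. Single nuclei (10x Genomics 3′ libraries, in which each captured RNA molecule carries a molecular tag, the UMI, and the barcode of its nucleus) came from the hippocampus of C57BL/6 mice aged 9 months. There were 3 WT, 3 PS19, 4 CLEAR and 4 CLEAR_PS19 libraries, each group with 1 female library and males otherwise. Bulk RNA-seq covered whole hippocampus of C57BL/6 mice whose sex is not given: 6 WT and 6 PS19 libraries at 4 months, 5 WT and 4 PS19 libraries at 9 months. The PS19 bulk replicate numbered 2 at 9 months was not analysed here. The PS19 line expresses mutant human tau from a transgene that the Prnp (prion protein) promoter drives, active mainly in neurons. The labels name CLEAR only as a mutant. From general knowledge of the study, and not from the labels, the mutated site is a CLEAR element (bound by the lysosomal transcription factor TFEB) of Atp6v1h, a gene for a subunit of the V-ATPase proton pump. CLEAR_PS19 mice carry both. The labels number the replicates without saying that each is a separate animal, so p-values measure the spread between these samples.

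TREM2 is a surface receptor of microglia for lipids and lipoproteins such as apolipoprotein E, and it signals through TYROBP (DAP12), an adaptor with a tyrosine-based motif that recruits the kinase SYK. In models of amyloid and tau disease, microglia near lesions lower their homeostatic genes and raise a set of genes for phagocytosis, lysosomes and lipid handling, a state whose full form depends on TREM2 in amyloid models. Axl (a receptor kinase for GAS6-bridged dying cells), Itgax (the integrin CD11c), Cst7 (cystatin F, an inhibitor of lysosomal cathepsins), Spp1 (the secreted matrix protein osteopontin), Gpnmb (a transmembrane glycoprotein of lysosome-rich phagocytes) and the tetraspanins Cd9 and Cd63 (of the cell surface and of late endosomes and exosomes) belong to that set.

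Promoter sequence was taken from RefSeq (GRCm38.p6), whose table held 8 of the 9 genes with 9 start sites. The table did not list Tyrobp. Each 250 bases before a start were searched on both strands for GAGGAA, the core bound by PU.1, the master transcription factor of macrophages and microglia, and for CACGTG, the E-box inside the CLEAR element. GAGGAA occurred at 23.3% of the 32851 starts in the table and in 4 of the 8 genes (Trem2, Axl, Spp1 and Cd63). CACGTG occurred at 6.02% of starts and in none of the 8. The 150 bases before the start are shown for the receptor and for 3 genes called higher in PS19 microglia, 5′ to 3′ on the strand of the gene. Capitals mark GAGGAA or its reverse complement; the Itgax stretch (chr7:128129400-128129549, plus strand) has no match. The others are chr17:48346251-48346400 (plus) for Trem2, chr7:25788734-25788883 (minus) for Axl and chr5:104434961-104435110 (plus) for Spp1. A match describes letters only.
Trem2: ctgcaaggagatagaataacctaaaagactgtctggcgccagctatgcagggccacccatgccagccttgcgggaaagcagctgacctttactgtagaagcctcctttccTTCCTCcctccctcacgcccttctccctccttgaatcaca
Axl: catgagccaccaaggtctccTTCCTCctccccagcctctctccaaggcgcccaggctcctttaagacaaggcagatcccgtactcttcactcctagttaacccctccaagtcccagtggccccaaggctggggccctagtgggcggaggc
Itgax: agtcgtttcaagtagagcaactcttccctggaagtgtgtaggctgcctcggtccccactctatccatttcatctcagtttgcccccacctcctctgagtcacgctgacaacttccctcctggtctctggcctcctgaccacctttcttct
Spp1: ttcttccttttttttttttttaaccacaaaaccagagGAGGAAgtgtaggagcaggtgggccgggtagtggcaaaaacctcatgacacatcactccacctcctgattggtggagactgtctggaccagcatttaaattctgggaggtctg

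In the annotation of GRCm38 (mm10), Trem2 lies at chr17:48346401-48354147 on the plus strand, Tyrobp at chr7:30413760-30417585 (plus), Axl at chr7:25757273-25788705 (minus), Itgax at chr7:128129547-128150657 (plus) and Cst7 at chr2:150570415-150578944 (plus). Spp1 lies at chr5:104435118-104441050 (plus), Gpnmb at chr6:49036546-49070929 (plus), Cd9 at chr6:125460266-125494791 (minus) and Cd63 at chr10:128900989-128912822 (plus). Cd9 shares 218 exonic bases with Gm26728 on the other strand, and since the bulk counting stated for 1 library ignored strand, bulk Cd9 is uncertain to that extent. Spp1 shares 309 exonic bases with Gm42793 on the same strand, a gene that the count tables used here do not list.

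Bulk libraries held 9630430 to 17182605 counts. After filtering and removal of doublets, 132322 nuclei remained, 9297 of them microglia-like, and microglial sums held 644046 to 3504987 UMIs per library. Prnp, whose promoter drives the transgene, was at 55.5 to 62.0 CPM (counts scaled to equal library size) in WT and 93.4 to 118 in PS19 nuclei, and at 59.4 to 86.1 in CLEAR and 88.7 to 181 in CLEAR_PS19. Atp6v1h was at 52.5 to 62.9 CPM in all 8 libraries labelled CLEAR or CLEAR_PS19 and at 95.2 to 121 in the other 6. By the correlation of their granule neuron sums the nuclei libraries were divided into 3 sets, a number that was imposed. Genes of the sex chromosomes were not left out. The sets were males (WT 1 and 2, PS19 1 and 2, CLEAR 3, CLEAR_PS19 3), the 4 females, and males with only CLEAR 1 and 2 and CLEAR_PS19 1 and 2. Set and sex cannot be told apart for the females, and the third set holds no WT or PS19 library. A pair of libraries shared at most 70 barcodes.

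In bulk hippocampus none of the 9 genes was called between PS19 and WT mice at 4 months, and all 9 were higher in PS19 at 9 months. The values that follow are CPM of the TMM-normalized library size. At 9 months Trem2 was at 12, 13.7, 9.75, 13.9 and 12.2 in WT and at 45, 42.5, 49.7 and 57.5 in PS19. Tyrobp was at 8.65, 9.08, 8.42, 8.54 and 6.17 in WT and at 40.8, 38, 30.5 and 46.8 in PS19. For the receptor and for its adaptor the groups lay far apart, with no value of one inside the range of the other. Trem2 was higher by 1.99 on the log2 scale (SE 0.161, edgeR adjusted p 1.1e-08) and Tyrobp by 2.26 (SE 0.142, edgeR adjusted p 2.3e-10). The test was edgeR's quasi-likelihood test with Benjamini-Hochberg adjustment over 16133 genes, as for all bulk values here. SE here and below is the absolute log2 difference divided by the square root of the test's F value. It is not a fitted standard error, and at few counts it can be smaller than counting error.

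Of the activation genes, Itgax and Cst7 were close to absent in WT. Itgax was at 0.0721, 0.833, 0.301, 0.732 and 0.509 CPM in WT and at 29.1, 23.1, 34.2 and 17.1 in PS19 at 9 months, a log2 difference of 5.74 (SE 0.415, adjusted p 2.07e-09). Cst7 was at 0.144, 0, 0.301, 0.163 and 0.255 in WT and at 14.6, 9.63, 13 and 13.7 in PS19, a log2 difference of 6.05 (SE 0.342, edgeR adjusted p 3.56e-11). Only 13 Cst7 counts were seen over the WT libraries, so its SE is too small to describe the counting error. Both genes thus went from under 1 CPM in each WT library to well above it in each PS19 library. Axl, present in WT, was at 61.5, 61.1, 62.8, 58.7 and 62.5 CPM there and at 101, 95.3, 102 and 130 in PS19 (log2 difference 0.80, SE 0.0837, adjusted p 4.48e-07).

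Spp1 varied in WT. It was at 15, 21.7, 16.9, 3.58 and 4.01 CPM in WT and at 38.8, 42.9, 45.9 and 38.7 in PS19 (log2 difference 1.76, SE 0.398, adjusted p 0.00436), with no overlap. Gpnmb was at 5.84, 3.42, 4.57, 4.23 and 10.1 in WT and at 18.3, 9.47, 33.1 and 22 in PS19 (log2 difference 1.87, SE 0.333, adjusted p 0.000479). It was the only 1 of the 9 with overlapping groups, since PS19 replicate 3 lay under WT replicate 5. The tetraspanins rose less than Spp1 and Gpnmb. Cd9 went from 43.1 ± 4.21 (SD, n = 5) to 107 ± 10.7 (n = 4) CPM, log2 difference 1.32 (edgeR adjusted p 1.86e-08). Cd63 went from 65.4 ± 7.57 to 129 ± 7.71, log2 difference 0.98 (edgeR adjusted p 9.65e-06). In total 9 of 9 genes were called higher, where 7.68% of all genes tested were, and 8 of 9 had groups that did not overlap with PS19 higher, against 8.01% of all genes. In bulk tissue, fewer or more cells of a type and less or more RNA per cell cannot be told apart.

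At 4 months none of the 9 was called (0 of 9, against 0.0186% of all genes called higher). Trem2 ranged from 9.03 to 16.7 CPM (median 10.2) in WT and from 8.82 to 14.4 (median 10.3) in PS19, and Tyrobp from 6.97 to 11.9 (median 7.34) and from 7.34 to 8.53 (median 7.97). Itgax was at 0.157 to 1.95 (median 0.894) in WT and 0.208 to 0.925 (median 0.501) in PS19, and Cst7 at 0 to 0.406 (median 0.114) and 0.104 to 0.252 (median 0.169). Cst7 rested on 12 counts over WT and 14 over PS19, so its missing call says little. Log2 differences at 4 months ran from -0.83 (Itgax, SE 0.482) to 0.22 (Cst7, SE 0.538), and were -0.67 (SE 0.392) for Spp1, -0.02 (SE 0.149) for Trem2, -0.08 (SE 0.132) for Tyrobp and -0.03 (SE 0.0735) for Axl. DESeq2 also called 0 of the 9, and 0 reached an unadjusted p under 0.05, which 595 genes of the whole table did. The PS19 effect at 9 months exceeded that at 4 months for all 9 genes (4.37% of all genes were called in that direction), by 2.00 for Trem2, 2.34 for Tyrobp, 0.83 for Axl, 6.58 for Itgax, 5.83 for Cst7, 2.44 for Spp1, 1.81 for Gpnmb, 1.3 for Cd9 and 0.97 for Cd63 on the log2 scale (edgeR adjusted p at most 0.0264, that of Gpnmb). The Gpnmb term was lost without PS19 replicate 4 (adjusted p 0.0714) or 5 (0.0583) at 9 months or WT replicate 4 at 4 months (0.0513).

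With age, PS19 animals rose in all 9 genes between 4 and 9 months (9 of 9, against 10.0% of all genes), from 0.85 for Axl (SE 0.0801, edgeR adjusted p 7.18e-08) to 6.09 for Cst7 (SE 0.323, adjusted p 9.2e-12) on the log2 scale, and no gene had overlapping ages (8.11% of all genes). In WT none of the 9 was called between the same ages, and by edgeR's test no gene at all was (0.0%; DESeq2 called 76, and 1802 reached an unadjusted p under 0.05). Of the 9, Gpnmb had an unadjusted p under 0.05 (log2 difference 0.93, SE 0.337, adjusted p 0.287). The comparisons with age and with genotype share libraries and are not independent.

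**Figure D1:**
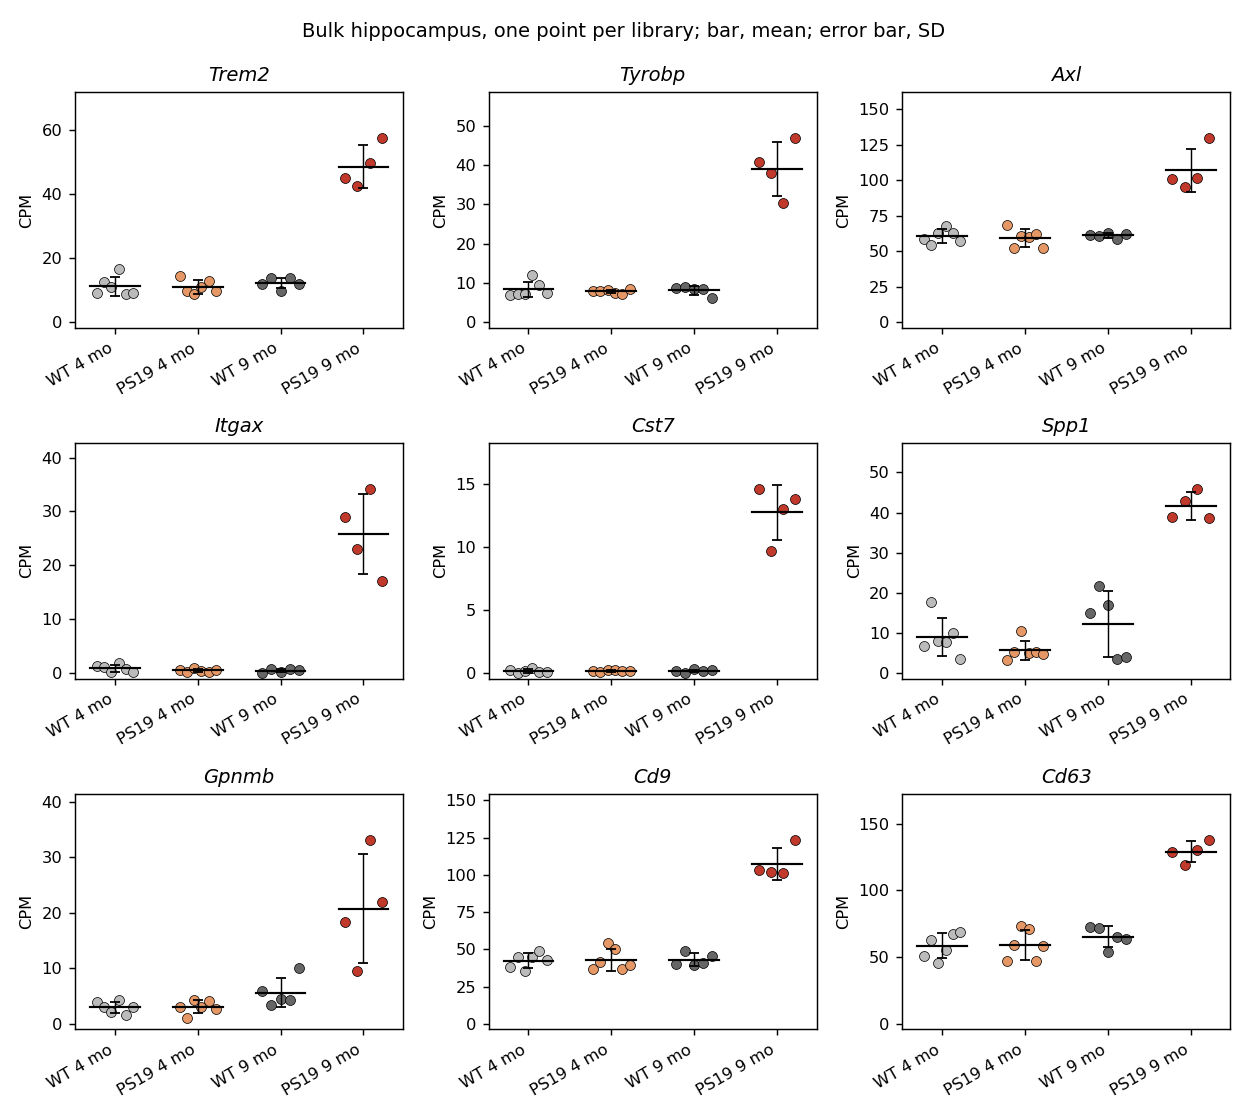
CPM of each of the 9 genes in bulk hippocampus (y axis, from 0, a scale for each gene) in WT and PS19 libraries at 4 and 9 months (x axis); points are libraries, horizontal bars means and error bars SD (n = 6, 6, 5 and 4). The PS19 libraries at 9 months lie above all others for each gene except Gpnmb, where PS19 replicate 3 (9.47) lies under WT replicate 5 (10.1).

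Levels can be compared between genes only per length, here as CPM per kilobase of all annotated exons of the gene. In WT at 9 months the order was Cd9 (21.1 ± 2.06), Cd63 (17.8 ± 2.06), Tyrobp (12.3 ± 1.72), Axl (12.2 ± 0.322), Spp1 (7.43 ± 4.91), Trem2 (2.49 ± 0.340), Gpnmb (0.863 ± 0.403), Cst7 (0.175 ± 0.118) and Itgax (0.102 ± 0.0648; SD, n = 5). In PS19 it was Tyrobp (58.5 ± 10.2), Cd9 (52.6 ± 5.25), Cd63 (35 ± 2.09), Spp1 (25.2 ± 2.10), Axl (21.2 ± 3.05), Cst7 (12.9 ± 2.20), Trem2 (9.84 ± 1.33), Itgax (5.38 ± 1.54) and Gpnmb (3.18 ± 1.5; n = 4). Neighbours whose ranges overlapped in WT were Cd9 and Cd63, Tyrobp and Axl, Axl and Spp1, Spp1 and Trem2, and Cst7 and Itgax. In PS19 they were Tyrobp and Cd9, Spp1 and Axl, Cst7 and Trem2, and Itgax and Gpnmb. The adaptor moved from the third place to the first, and Cst7 from below Trem2 to above it. The exons of Trem2 span 4946 bases over its annotated transcripts and those of Tyrobp 667, so a gene with long alternative exons is placed low.

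Microglia-like nuclei were 3.88%, 3.96% and 4.73% of nuclei in WT and 10.7%, 15.1% and 8.51% in PS19. They were 5.07% ± 0.754 (SD, n = 4) in CLEAR and 7.69% ± 1.87 (n = 4) in CLEAR_PS19. Microglia-like nuclei came from 3 clusters, made without the 9 genes and a list of further activation genes. Of the genes so left out, 28 were among the variable genes. All 16 microglia markers were detected in at least 10% of nuclei of the largest cluster, and 15 in each of the others. The leading genes of the largest cluster held 4 markers, Csf1r and Inpp5d among them, and those of cluster 16 held 1. The largest (cluster 14, 5229 nuclei, led by Siglech, Selplg and Csf1r) held 93.3% ± 5.77 of WT and 92.1% ± 3.93 of CLEAR microglia. Cluster 16 (4025 nuclei, led by Apobec1, Lilrb4a, Fgr, Cd84 and Ifi204, most of them immune genes) held 94.9%, 98.3% and 42.8% of PS19 microglia and 34.6% ± 31.2 (14% to 81.1%) of CLEAR_PS19 microglia. The third (cluster 15, with Siglech, Pik3cg and Selplg among its leading genes) held 43 nuclei, of which 26 were in WT replicate 1, 15 in CLEAR replicate 3 and 2 in WT replicate 3. Cluster 14 thus holds most of the class in WT and CLEAR and cluster 16 in PS19 replicates 1 and 2 and CLEAR_PS19 replicate 3, and the values below compare the whole class.

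The summed level of the 16 microglia markers was 14932 to 16768 CPM in WT and 11658 to 14026 in PS19 microglia. Markers of other cells moved as well. The 7 border macrophage markers summed to 1.53 to 27.9 CPM in WT and 17.3 to 112 in PS19, the 5 endothelial markers to 29.2 to 65.2 and 42.8 to 188, and the 7 T cell markers to 0 to 2.65 and 2.81 to 12. The 6 oligodendrocyte markers summed to 1465 CPM in WT replicate 1 and 1096 in CLEAR replicate 3, against 277 to 528 in the other 12 libraries. Astrocyte markers stood at 979 to 2011 CPM in WT replicate 1, PS19 replicate 1, CLEAR replicate 4 and CLEAR_PS19 replicate 4, and at 236 to 387 in the other 10. All markers of the border macrophage, endothelial and T cell lists had at least 1 UMI, and the part of these cells in the results below was not tested.

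Within microglia, the receptor and its adaptor were not called different between WT and PS19, while the 7 activation genes rose. Values are CPM of the UMIs summed over the microglia of a library. Trem2 was at 161, 203 and 226 in WT and at 197, 233 and 239 in PS19, and the groups overlapped (log2 difference 0.18, SE 0.315, edgeR adjusted p 0.822). Tyrobp was at 110, 125 and 130 in WT and at 175, 173 and 195 in PS19, without overlap, but its difference of 0.57 (SE 0.345, adjusted p 0.373) did not pass the test. With the library set in place of sex the Tyrobp difference passed (0.57, adjusted p 0.00287). Within the first set it was 0.56 and within the female set 0.58. In data simulated from the real means, changes of log2 size 1 were recovered in 37.8% of microglial genes. The missing calls of Trem2 and Tyrobp thus do not show equal levels.

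Axl was at 0, 3.28 and 6.50 CPM in WT microglia and at 197, 281 and 115 in PS19. Itgax was at 2.73, 3.28 and 0 in WT and at 109, 133 and 38.5 in PS19, and Cst7 at 0, 3.28 and 0 in WT and 34, 39.3 and 10.9 in PS19. These genes were at or near 0 in each WT library and present in each PS19 library, with the female PS19 replicate 3 the lowest. The counts summed over WT libraries were 6 for Axl, 4 for Itgax and 2 for Cst7, so the pooled ratios, with exact 95% counting intervals, were 72.7 (33.3 to 198), 53.3 (20.7 to 196) and 32.1 (8.78 to 266). The intervals cover counting error only. Without WT replicate 1 the ratios for Axl and Cst7 were 45.4 and 20.06, without WT replicate 3 that for Axl was 149, and without WT replicate 2, which held both Cst7 counts, Cst7 was at least 12.6-fold higher. By edgeR's quasi-likelihood test over 10295 genes the adjusted p was 0.000513, 0.000166 and 0.000565.

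No WT microglial UMI of Spp1 or Gpnmb was seen. In PS19, Spp1 was at 109, 172 and 19.2 CPM and Gpnmb at 73.9, 110 and 21.8. Against the floor of 3 counts over the WT group this is at least 65.3-fold higher for Spp1 (edgeR adjusted p 0.000825) and at least 44.8-fold higher for Gpnmb (adjusted p 0.00108). Without WT replicate 1 the bounds were 40.8 and 28.0, and without PS19 replicate 2 that of Spp1 was 41.7. The tetraspanins were detected in WT. Cd9 was at 185, 190 and 184 CPM in WT and at 577, 670 and 343 in PS19 (log2 difference 1.44, SE 0.233, edgeR adjusted p 0.00123), and Cd63 at 35.4, 42.6 and 47.1 and at 127, 148 and 89.5 (1.52, SE 0.332, adjusted p 0.00776). Cd63 was called in 21 of 24 alternatives. The losses included the fits without WT replicate 1 (edgeR adjusted p 0.0624) or 2 (0.0504).

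In all, 7 of the 9 genes were called higher in PS19 microglia, where 5.42% of the genes tested were, and 8 of 9, all but Trem2, had groups apart with PS19 higher, as did 12.5% of genes. The median log2 difference of the 9 was 4.71, also with Spp1 and Gpnmb at their bounds, and that of all genes was -0.03. The 4.71 is the fitted value of Cst7, which rests on 2 WT counts, so it is no exact size. PS19 replicates 1 and 2 and WT replicates 1 and 2 decided how many genes of the whole table were called: 1024 with all libraries, and 635, 591, 558 and 493 without WT 1, WT 2, PS19 1 and PS19 2. Between 6 and 7 of the 9 genes were called in these fits.

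**Figure D2:**
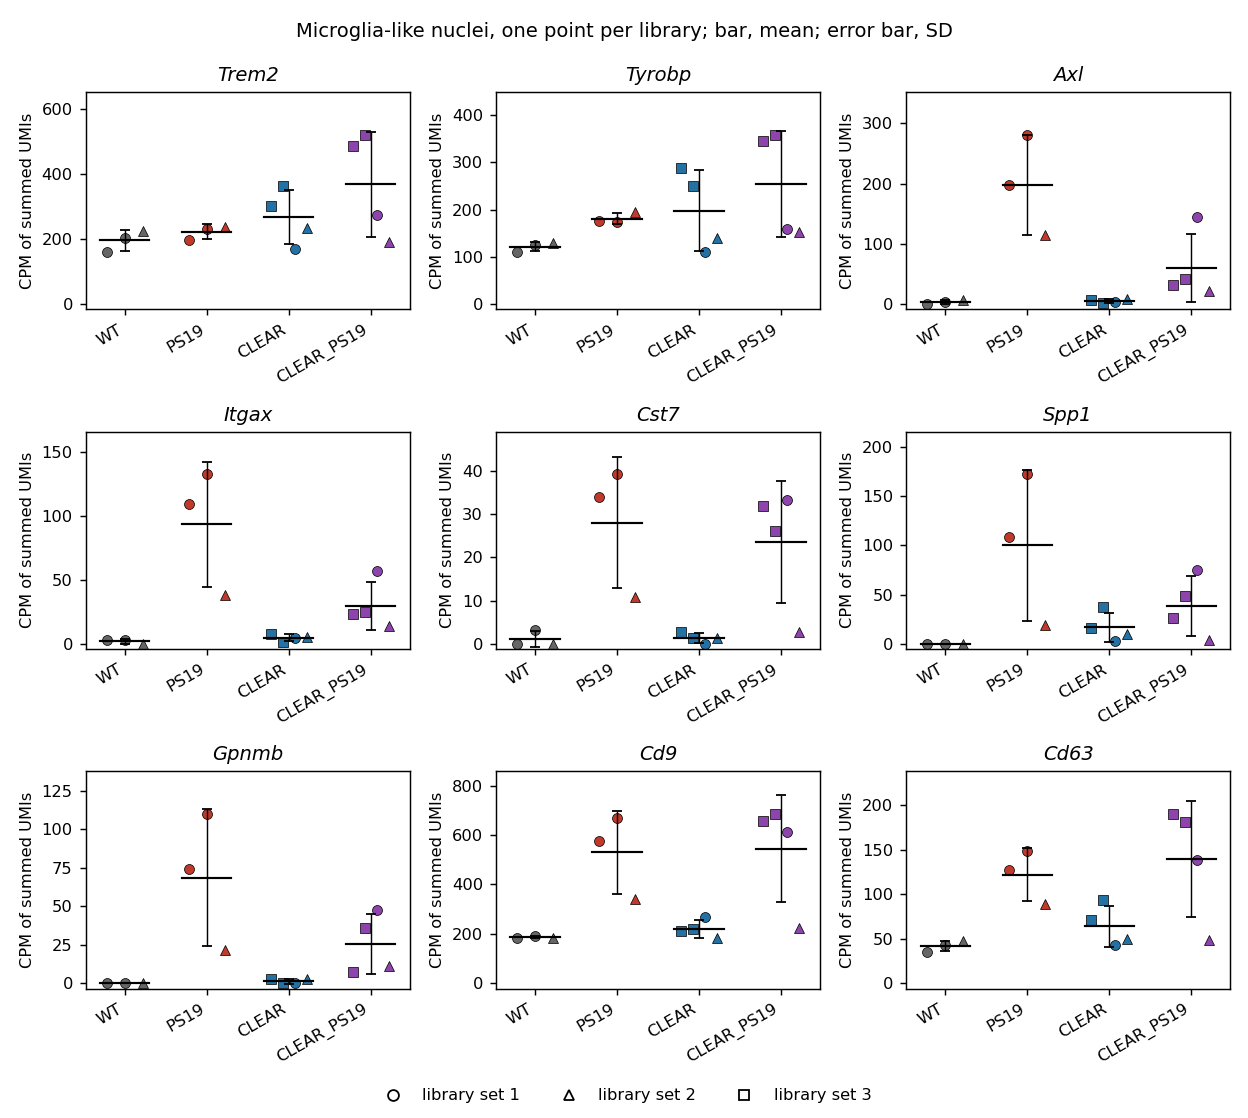
CPM of each gene in UMIs summed over microglia-like nuclei (y axis, from about 0, a scale for each gene) in the 4 genotypes (x axis); points are libraries, shaped by library set, horizontal bars means and error bars SD (n = 3, 3, 4 and 4). Axl, Itgax, Cst7, Spp1, Gpnmb, Cd9 and Cd63 are high in PS19, and the female libraries (triangles) are the lowest of PS19 for each of them.

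With the CLEAR mutation in both groups, 5 genes were higher with the tau transgene. Comparing CLEAR_PS19 with CLEAR microglia, Axl was at 6.68, 2.57, 3.18 and 9.08 CPM in CLEAR and at 32.7, 41.5, 144 and 22.2 in CLEAR_PS19 (log2 difference 3.44, edgeR adjusted p 0.0333). Itgax was at 8.02, 1.28, 4.76 and 5.19 and at 23.2, 25.3, 56.8 and 13.8 (2.62, adjusted p 0.0212). Both were apart in all 8 libraries, with replicate 3 of CLEAR_PS19 the highest. Cst7 had 4 counts over the CLEAR libraries and 147 over CLEAR_PS19, a ratio of 20.02 (7.65 to 74.4; adjusted p 0.00283), and Gpnmb 4 and 158, a ratio of 21.5 (8.24 to 79.9; adjusted p 0.045; 13.1 without CLEAR_PS19 replicate 3). Cd9 was at 214, 220, 270 and 183 CPM in CLEAR and at 658, 686, 613 and 223 in CLEAR_PS19 (1.23, edgeR adjusted p 0.012). Replicate 4 of CLEAR_PS19 lay inside the CLEAR range. Over 24 alternatives Cst7 was called in 22, Itgax and Cd9 in 18 each, Axl in 16 and Gpnmb in 10.

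Cd63 (70.8, 93.7, 42.9 and 49.3 CPM in CLEAR, 190, 181, 138 and 48.5 in CLEAR_PS19), Spp1 (16, 37.2, 3.18 and 10.4, and 25.9, 48.7, 75.1 and 4.15), Trem2 and Tyrobp did not pass. Their log2 differences were 1.06, 1.09, 0.44 and 0.35, with edgeR adjusted p of 0.0965, 0.496, 0.626 and 0.759. The 5 of 9 called stand against 0.622% of all genes called higher, and 4 of 9 had groups apart, against 3.14%. Same-numbered CLEAR and CLEAR_PS19 microglia deviated together. With the replicate number as a block in place of sex, only Cst7 was still called (edgeR adjusted p 0.0423). Axl (0.0877), Itgax (0.133), Gpnmb (0.161) and Cd9 (0.0651) were not. The block runs over all genotypes, and its number 3 joins female WT and PS19 libraries with male CLEAR and CLEAR_PS19 ones. These losses are thus no clean check of pairing. Without CLEAR replicate 1 or 2 the count was 1 of 9, without CLEAR replicate 3 it was 2, and without PS19 replicate 1 it was 3. With no sex term it was 0, and with microglia chosen by marker UMIs 1. Without the third library set, an alternative chosen after the data were seen, it was 1. Sets 1 and 2 hold 1 library of each group, so their differences have no spread; set 3 holds 2 of each. Cd9 differed by log2 1.18, 0.28 and 1.63 in sets 1, 2 and 3. The other genes rest on few CLEAR counts, given here for CLEAR and then CLEAR_PS19. In set 1 they were 2 and 299 for Axl, 3 and 118 for Itgax, 0 and 99 for Gpnmb and 2 and 156 for Spp1. In set 2 they were 7 and 16, 4 and 10, 2 and 8, and 8 and 3, in the same order. In set 3, over 2 libraries a group, Axl had 5 and 2 against 48 and 46, Itgax 6 and 1 against 34 and 28, and Gpnmb 2 and 0 against 11 and 40. Spp1 had 12 and 29 against 38 and 54. Cst7 had 0 and 69 in set 1, 1 and 2 in set 2, and 2 and 1 against 47 and 29 in set 3.

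The difference between CLEAR_PS19 and PS19 microglia passed edgeR's test for 0 of the 9 genes, where 0.0194% of all genes were called lower; DESeq2 called 1 of the 9, and 5 (4 lower and Trem2 higher) reached an unadjusted p under 0.05, as did 1456 of the 10295 genes tested. Axl was lower in CLEAR_PS19 by a log2 difference of -1.74 (SE 0.417, edgeR adjusted p 0.0914) and Itgax of -1.68 (SE 0.302, adjusted p 0.0724), and Spp1 and Gpnmb both had -1.47 (adjusted p 0.155 and 0.159). Cd9 (-0.04, SE 0.204), Cd63 (0.10, SE 0.263) and Cst7 (-0.41, SE 0.31) lay closer to 0. Trem2 was at a higher level in CLEAR_PS19 by a log2 difference of 0.69 (SE 0.29, edgeR adjusted p 0.294) and Tyrobp by 0.44 (SE 0.306, adjusted p 0.551). Without the third library set, which holds no PS19 library, the Trem2 difference was 0.08 and that of Tyrobp -0.21. The calls depended on single libraries and on the filter: with no filter on low counts 5 of the 9 were called. Without CLEAR_PS19 replicate 3, whose Axl level of 144 stood above the 22.2 to 41.5 of the others, 4 genes were called lower in CLEAR_PS19: Axl (-2.62, adjusted p 0.000341), Itgax (-2.17, 0.00062), Spp1 (-1.94, 0.0165) and Gpnmb (-1.95, 0.021), with 825 genes called in the whole table. CLEAR_PS19 replicate 3 was the only male CLEAR_PS19 library in the library set of PS19 replicates 1 and 2. Without it, genotype and library set could not be told apart among the males. Leaving out PS19 replicate 3 instead, 1 of the 9 genes was called. Within the library set of CLEAR_PS19 replicate 3 the Axl difference was -0.70 and among the females -2.29, and for Itgax -1.06 and -1.38. This comparison shares its libraries with those above, so the results are not independent.

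CLEAR microglia were not called different from WT in any of the 9 genes, and no gene was called in the whole table (0.0% by edgeR's test and 0 by DESeq2; 558 with an unadjusted p under 0.05, among them Spp1 of the 9). Spp1 had 51 counts over the CLEAR libraries and none in WT, at least 10.9-fold higher (6.44-fold without CLEAR replicate 2, which gave 29 of the 51, and 6.82-fold without WT replicate 1), with groups apart (2.77% of all genes were), but its adjusted p was 0.88. Trem2 was at 303, 365, 171 and 235 CPM in CLEAR and at 488, 523, 274 and 192 in CLEAR_PS19, and Tyrobp at 289, 250, 111 and 140 and at 344, 358, 160 and 154. The high values of both genes lie in replicates 1 and 2 of both groups, which form the third library set. Within the other sets CLEAR differed from WT by -0.08 and 0.06 for Trem2 and by -0.08 and 0.11 for Tyrobp on the log2 scale. Axl had 16 counts over CLEAR and 6 over WT, Itgax 14 and 4, Cst7 4 and 2, and Gpnmb 4 and 0. At such counts a missing call says little about these genes. The CLEAR effect in PS19 did not differ by the test from that in WT for any of the 9 (0.0% of all genes; DESeq2 called 0 of the 9, and Itgax and Spp1, 2 of them, reached an unadjusted p under 0.05, as did 743 of the 10295 genes tested); the smallest adjusted p was that of Spp1, 0.423.

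Shares of positive nuclei show the same genes nucleus by nucleus. Each microglia-like nucleus was thinned at random to 1000 UMIs and the 1141 shallower ones were left out. This leaves 1012 WT, 3124 PS19, 1582 CLEAR and 2438 CLEAR_PS19 nuclei. The loss was uneven: 63 of 1075 in WT, 83 of 3207 in PS19, 212 of 1794 in CLEAR and 783 of 3221 in CLEAR_PS19. Cluster 16 was deeper than cluster 14, with median UMIs at 0.506 and 0.306 of the library median. What the uneven loss does to the shares and co-detection below was not tested. Axl was detected in 0%, 0% and 0.552% of WT microglia and in 16.7%, 23.8% and 10.4% of PS19 microglia. Itgax was detected in 0.546%, 0.352% and 0% of WT and 9.11%, 9.71% and 3.20% of PS19 nuclei. For both, each PS19 library lay above each WT library.

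Cst7, Spp1 and Gpnmb had no positive nucleus among 1012 in WT, which allows up to 0.296% of nuclei with a UMI at this depth, by counting error alone over nuclei pooled from 3 libraries. Unthinned, Cst7 had 2 UMIs in WT microglia. In PS19 they were found in 3.81%, 4.53% and 1.37%, in 8.36%, 9.27% and 1.52% and in 4.83%, 5.46% and 0.761% of nuclei. Cd9 went from 16.1%, 18.3% and 11.9% in WT to 39.96%, 44.3% and 24.4% in PS19, and Cd63 from 4.37%, 4.23% and 5.52% to 11.8%, 13.5% and 8.83%. Trem2 moved from 13.7%, 18.7% and 18% to 21.2%, 22.1% and 21.6%, and Tyrobp from 10.1%, 10.2% and 12.4% to 15.1%, 16.4% and 19.2%. For the receptor and its adaptor too, each PS19 library lay above each WT library in this share. The mean share was more than 2 times as high in PS19 as in WT for 7 of the 9 genes, where it was for 12.7% of all genes with a share of at least 0.1%. No share was tested.

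In CLEAR_PS19, the share with Axl was 2.52%, 3.73%, 11.4% and 2.39%, against 1.01%, 0%, 0.660% and 0.423% in CLEAR. Cd9 was detected in 43.2%, 43.2%, 39.3% and 17% of CLEAR_PS19 and in 15.9%, 18.5%, 21.1% and 15.4% of CLEAR nuclei. For 6 genes the mean share was over 2 times as high in CLEAR_PS19, against 7.79% of all genes. The mean share with Axl was 17% ± 6.73 in PS19 and 5.00% ± 4.28 in CLEAR_PS19, while that with Cd9 was 36.2% ± 10.5 and 35.7% ± 12.6. Without thinning the shares were higher but in the same order between PS19 and WT, with Axl at 30.9% and 0.570%, Cd9 at 56.4% and 27.0% and Trem2 at 37.4% and 28.7%. The median depth of microglia ran from 1048 to 2444 UMIs per library.

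**Figure D3:**
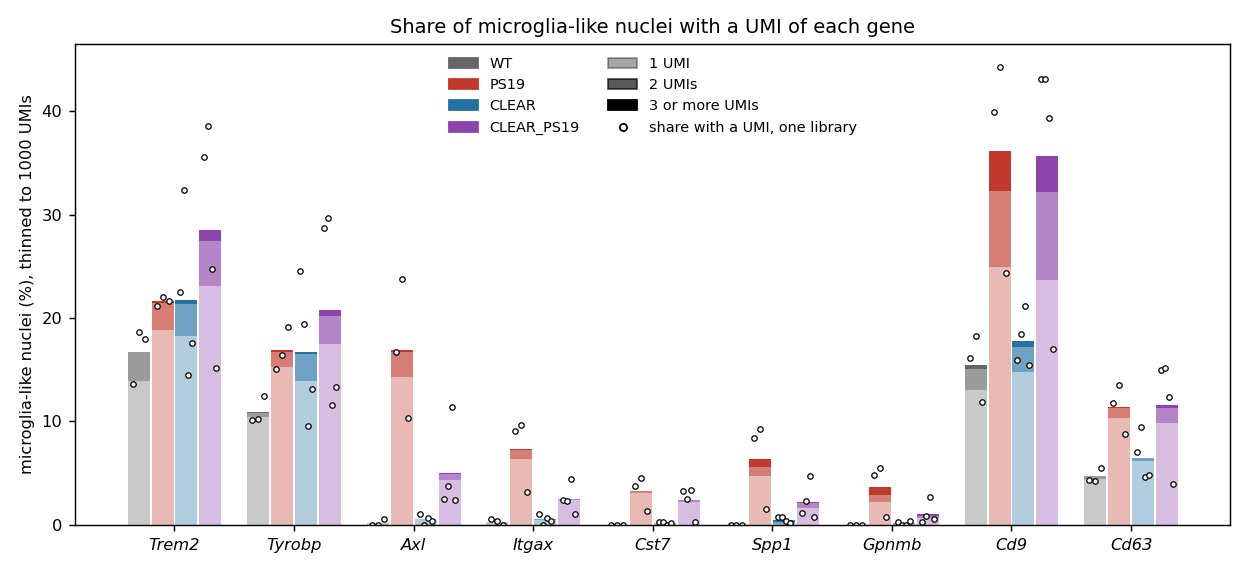
Share of microglia-like nuclei, thinned to 1000 UMIs, with a UMI of each gene (y axis, percent) by gene (x axis) and genotype (colour); bars are means over libraries, shaded by 1, 2 or 3 and more UMIs, and open points are libraries. Axl reaches 23.8% in a PS19 library and 0.552% at most in WT.

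Most positive nuclei held 1 UMI. In PS19 the mean number of UMIs per positive nucleus was 2.21 for Gpnmb, 1.49 for Spp1 and 1.45 for Cd9, and between 1.02 and 1.16 for the other 6 genes. Nuclei with 3 or more UMIs were 0.795% for Gpnmb, 0.782% for Spp1 and 3.91% for Cd9. Nuclei with exactly 1 UMI were 2.20% for Gpnmb, 4.69% for Spp1 and 3.13% for Cst7, for which no library had nuclei with 3 or more.

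The same count in other classes gives the background. In granule neurons, thinned in the same way from a median depth of 7039 UMIs, the mean shares over libraries were 0.191% for Trem2, 0.216% for Tyrobp, 0.0551% for Axl, 0.0104% for Itgax, 0.0954% for Cst7, 0.0713% for Spp1 and 0.763% for Gpnmb. In PS19 granule neurons Trem2 was at 0.464% and Spp1 at 0.246%, above the 0.115% and 0.00988% of WT. In WT microglia the mean share was 0.184% for Axl and 0.300% for Itgax. Some WT libraries had no positive microglial nucleus of these genes, so the WT means are not read as above the granule neuron shares. In PS19 microglia the mean shares were 17% and 7.34%. Oligodendrocytes had shares of 21.1% for Cd9 and 10.0% for Cd63, and astrocytes 20.8% for Cd63 and 3.56% for Axl. Mural cells were at 6.28% for Axl. Oligodendrocyte precursors were at 24.3% for Cd9 and at 3.98% for Gpnmb, beside 3.69% for Gpnmb in PS19 microglia, and the Gpnmb share of granule neurons is not read as background.

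Co-detection asks whether the genes fall in the same nuclei. For each library the number of nuclei with a pair of genes was set against the product of the single shares, and the counts were added over the 7 libraries with the transgene. Trem2 and Tyrobp were found together in 292 nuclei, against 275 from the product (ratio 1.06). Trem2 was found with Axl at a ratio of 0.992, with Spp1 at 0.877, with Gpnmb at 0.895, with Cd9 at 1.01, with Cd63 at 1.1, with Cst7 at 1.11 and with Itgax at 1.14. In single libraries where the product came to at least 5 nuclei, the ratio ran from 0.576 to 1.46 for Cst7, from 0.183 to 1.07 for Gpnmb and from 0.885 to 1.15 for Axl.

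Among the activation genes some pairs were found together more often. Spp1 and Gpnmb shared 36 nuclei against 12.6 from the product (2.85), Cst7 and Spp1 25 against 11.3 (2.21), Itgax and Cst7 25 against 12.3 (2.04) and Itgax and Spp1 42 against 23.3 (1.80). The product reached 5 nuclei in only 1 of the 7 libraries for Spp1 with Gpnmb (ratio there 2.55), Cst7 with Spp1 (2.23) and Itgax with Cst7 (1.80). For Itgax with Spp1 it did so in 2 libraries (1.52 and 1.83). Cd63 was found with Cst7 at 1.64, with Gpnmb at 1.61 and with Spp1 at 1.52, where 1, 2 and 2 libraries reached 5. Axl and Gpnmb were at 0.998, and Cd9 and Cd63 at 1.07. The ratios rest on few nuclei that share library and depth, so they are given without a test. In PS19 alone the pair of Spp1 and Gpnmb had 33 nuclei against 11.5.

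**Figure D4:**
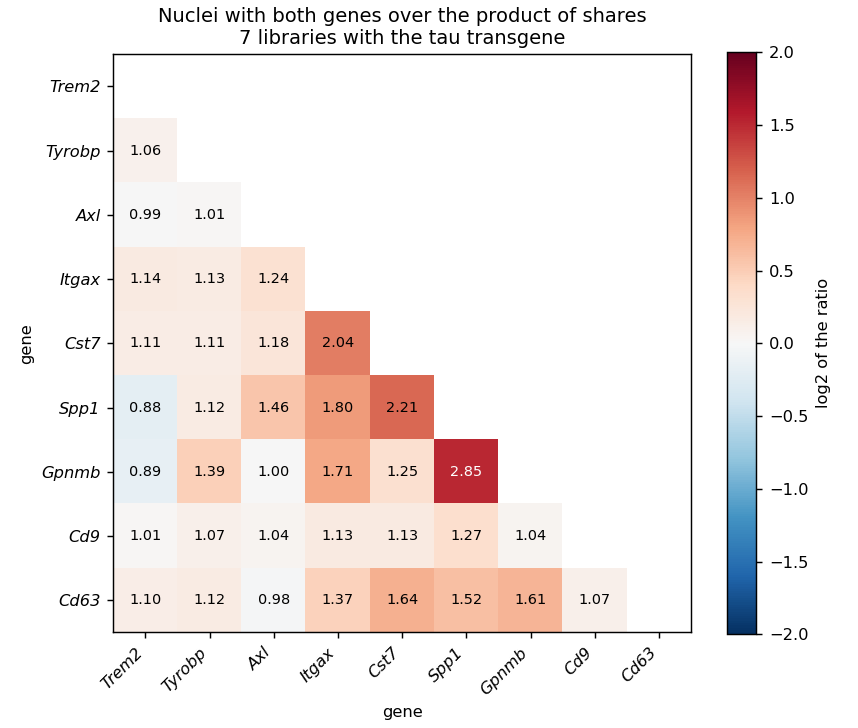
Nuclei with both genes of a pair over the number given by the product of their shares within each library, summed over the 7 PS19 and CLEAR_PS19 libraries (rows and columns, genes; numbers, the ratio; colour, its log2). Spp1 with Gpnmb is at 2.85, and the column of Trem2 runs from 0.88 to 1.14.

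No WT nucleus had UMIs of 3 or more of the 7 activation genes. If the genes were detected independently, 0.00272% to 0.00385% of the nuclei of a WT library would. The single shares thus leave none to be seen among 1012 WT nuclei. In PS19 4.93%, 7.98% and 1.22% of nuclei did, against 4.44%, 6.79% and 0.604% if the genes were detected independently. In CLEAR_PS19 it was 1.86%, 2.49%, 3.14% and 0.798%, against 0.760%, 0.956%, 2.22% and 0.0514%. CLEAR had 5 such nuclei in all, 0.211% to 0.506% of a library. Up to 5 of the 7 genes were seen in 1 nucleus in PS19 and in CLEAR_PS19, up to 4 in CLEAR and up to 2 in WT. Every library with the transgene lay above each library without it, and above its own product. The products had the same order, at 0.0514% or more with the transgene and 0.0452% or less without it. The order between libraries therefore adds nothing to the shares of the single genes. The CLEAR libraries also lay above their products, which were 0.0147% to 0.0452%, on 1 or 2 nuclei each.

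**Figure D5:**
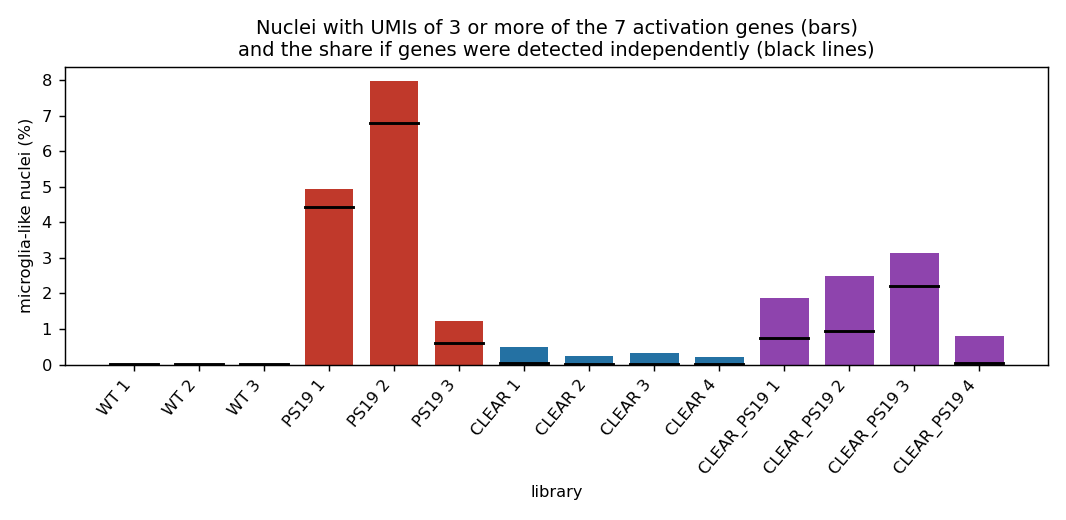
Share of microglia-like nuclei, thinned to 1000 UMIs, with UMIs of at least 3 of Axl, Itgax, Cst7, Spp1, Gpnmb, Cd9 and Cd63 (y axis, percent) in each library (x axis); bars are the measured share and black lines the share if the genes were detected independently. PS19 2 is at 7.98% and WT is at 0.

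Detection of Trem2 was then compared over nuclei grouped by how many activation genes they held. In PS19, 22.3% of nuclei with none of the 7, 22% with 1, 20.4% with 2 and 19.2% with 3 or more had a Trem2 UMI. Tyrobp was at 15.2%, 17.2%, 17.3% and 18.6%. In CLEAR_PS19, Trem2 was at 26.2%, 32.0%, 32.3% and 43.6%, the last over 55 nuclei. These shares pool libraries, which differed in Trem2 and in their order. In the same 4 classes PS19 replicate 1 was at 20.4%, 24.6%, 17.1% and 13.2%, replicate 2 at 22.9%, 21.3%, 22.5% and 21.6%, and replicate 3 at 23.4%, 18.2%, 20.4% and 25% (8 nuclei in the last). CLEAR_PS19 replicate 1 was at 33.8%, 36.6%, 35.8% and 57.1% (14 nuclei), and replicate 2 at 34.5%, 38.6%, 50.9% and 58.3% (12 nuclei). Replicate 3 was at 23%, 27.9%, 19.6% and 30.8% (26 nuclei), and replicate 4 at 14.2%, 16.3%, 50% (4 nuclei) and 33.3% (3 nuclei). All 4 CLEAR_PS19 libraries had a larger Trem2 share with 1 and with 3 or more genes than with none, and the PS19 libraries had no shared order. For Tyrobp, PS19 replicate 1 was at 12.2%, 16.3%, 15.6% and 22.6%, replicate 2 at 14.3%, 16.8%, 18.5% and 16.2%, and replicate 3 at 18.9%, 20.2%, 16.7% and 25%. In CLEAR_PS19, Tyrobp rose at each step in replicates 1 and 2. Replicate 3 was at 12.5%, 11.3%, 8.93% and 15.4%, and replicate 4 fell from 13.1% to 11.3% before classes of 4 and 3 nuclei.

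Cluster 16 held 27 to 32 nuclei per CLEAR library and 26, 7 and 15 in WT. In its 26 nuclei of WT replicate 1, Axl, Cst7, Spp1 and Gpnmb had 0 UMIs, Itgax and Cd63 1 each and Cd9 9 (158 CPM); the other WT libraries were too small for a level. Axl was at 227 ± 44.5 CPM there in PS19 (SD, n = 3), 122 ± 38.1 in CLEAR_PS19 (n = 4) and 42.7 ± 34.5 in CLEAR (n = 4). Itgax was at 104 ± 33.8, 74.6 ± 13.1 and 50.4 ± 31.5, and Cd9 at 559 ± 118, 682 ± 250 and 308 ± 71. Spp1 was at 113, 170 and 35.4 in PS19 and at 186, 514, 0 and 163 in CLEAR, where the second value rests on 29 UMIs. In cluster 14 of PS19 (56, 24 and 407 nuclei) Axl had 7, 2 and 20 UMIs, or 53.6 ± 19.8 CPM, against 2.18 ± 2.54 in WT, and Cd9 was at 383 ± 116 against 178 ± 15.8. Gpnmb had no UMI in cluster 14 of any PS19 library, and Cst7 had 2, 0 and 2. No test was made within clusters.

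Summed over all nuclei, the receptor and its adaptor were higher in PS19 as in bulk. Trem2 was at 2.37 to 3.00 CPM in WT and 7.08 to 17.1 in PS19 (log2 difference 2.06, edgeR adjusted p 0.00668), and Tyrobp at 1.5 to 2.18 and 6.30 to 15.7 (2.50, adjusted p 0.00362). Itgax (6.79, adjusted p 0.0014), Spp1 (4.22, 0.00638), Cst7 (1.81, 0.0287) and Cd9 (1.52, 0.00923) were called too, 6 of 9 where 4.03% of all genes were called higher. Axl (2.26, edgeR adjusted p 0.0631) and Cd63 (1.00, 0.0677) passed with the replicate number as a block in place of sex (0.0487 and 0.0346), and Gpnmb did not (0.89, 0.135). Without WT replicate 2 the count was 2 of 9. In the other 3 comparisons of all nuclei edgeR's test called 0 of the 9, where 0.0543% (CLEAR_PS19 against CLEAR), 0.00453% (CLEAR against WT) and 0.0136% (CLEAR_PS19 against PS19) of all genes were called. DESeq2 called 2, 0 and 2 of the 9 there, and 5, 2 and 6 reached an unadjusted p under 0.05, as did 1537, 1081 and 3328 of the 22083 genes tested.

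Microglia gave 70.8% of the Trem2 UMIs of WT and 71.3% of those of PS19. The share from microglia went from 1.6% to 84.8% for Axl, of which astrocytes gave 66.8% in WT, from 0% to 60.1% for Spp1 and from 0% to 43.8% for Gpnmb, of which granule neurons gave 59.8% in WT. It went from 8.58% to 33.1% for Cd9, whose largest source in both was oligodendrocytes (42.6% and 38.3%), and from 57.1% to 95.2% for Itgax, on 7 UMIs in WT.

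A list of 30 genes of TREM2 ligands and signalling, chosen with earlier results known, was counted beside the members. In bulk at 9 months, 18 of its 25 tested genes were higher in PS19 (7.68% of all genes) and none lower (5.09%), with a median log2 difference of 0.94 against -0.01 for all genes. The genes with the smallest p were Vav1 (1.35), Clu (0.68; clusterin, a lipoprotein ligand), Itgb2 (2.12; the beta chain of CD11c), Cd33 (1.22; an inhibitory lectin), Cd44 (2.16) and Pros1 (1.11; a ligand of AXL-family receptors), all with edgeR adjusted p of at most 5.23e-07. Within microglia 4 of 24 were higher (5.42% of all genes) and 1 lower (4.53%): Apoe (2.80, adjusted p 0.00073), Cd44 (1 count over WT), Ptpn6 (0.92, 0.00373), Ms4a6d (0.85, 0.0379) and, lower, Pik3cg (-0.54, 0.031; not called with the replicate number as a block). The kinase Syk (0.83, adjusted p 0.00534, in bulk) was at 221 ± 20.2 CPM in WT and 194 ± 30.7 in PS19 microglia (SD, n = 3).

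A second list held 30 further activation genes. In bulk 20 of 27 tested were higher (7.68% of all genes), with the smallest p for Ctsb, Ctsz, Cd68, Ccl6, Lyz2 and Ctsd (log2 0.68, 1.49, 1.95, 3.47, 2.73 and 1.27; edgeR adjusted p at most 9.34e-08). In PS19 microglia 22 of 28 were higher (5.42% of all genes), led by Csf1 (3.66, adjusted p 9.13e-06), Lilrb4a (4.48, 0.00021) and Ccl3 (3.68, 0.000565), with Hif1a at 1.68 (0.000565). Lgals3 (2 counts over WT) and Lpl (7 counts) were called as well. In CLEAR_PS19 against CLEAR microglia, 9 of 28 were higher (0.622% of all genes), but 2 with the replicate number as a block, and none of the first list with or without it. Without CLEAR replicate 1, 2 or 3 the 9 became 2, without PS19 replicate 1 it was 4, and without CLEAR replicate 4, CLEAR_PS19 replicate 3 or WT replicate 1 or 3 it was 5. It was 2 with no sex term and 1 with microglia chosen by marker UMIs, which also took the 22 in PS19 to 13.

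The genes outside the 9 whose levels were most like Trem2 over the 14 microglial sums, among 7634 genes with a mean of at least 20 CPM, were C1qb (Pearson r 0.978), C1qa (0.962), C1qc (0.933), Cyba (0.920) and Cd68 (0.914). Those most like Cst7 were Serpine2 (0.952), H2-D1 (0.939), Ctsb (0.935), Hif1a (0.931) and Npc2 (0.929). Libraries of a group share genotype and library set, so r is given as a description.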

How the data were processed

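Single-nucleus files hold raw UMI counts per gene and barcode as deposited by the authors, made with Cell Ranger per the file headers and the submitters' processing notes. Bulk files hold raw read counts per gene as deposited by the authors; the submitters' processing notes name cutadapt, STAR, featureCounts and DESeq2 with the mm10 build, without versions. Nuclei with at least 300 genes and under 5% mitochondrial UMIs were kept, doublets were removed with Scrublet at 0.8% per 1000 nuclei, and nuclei were clustered (scanpy 1.11.5, 2000 variable genes, 30 components, 20 neighbours, Leiden resolution 1 with leidenalg 0.10.2). Clusters were named from marker lists. Depth was 40005828 to 83608962 UMIs per nuclei library.

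UMIs were summed per library. Sums and bulk counts were tested with edgeR 4.0.16 (quasi-likelihood, TMM, filterByExpr, all groups of a data type in a single fit, sex as covariate for nuclei), adjusted p under 0.05. Log2 CPM for likeness and within-set differences used a prior count of 2. Genes called at other settings (DESeq2 1.42.0, RLE scaling, no filter, replicate block, other covariates and microglia definitions, each replicate left out) are in the closing section. In data simulated from the real means, changes of log2 size 2 were recovered in 97.0% of genes in bulk, 85.9% in microglia and 88.9% in all nuclei. The members and lists were chosen with earlier results of these data known. Named list genes are the 6 with the smallest p per list, and likeness genes the 5 with the highest r over microglial sums among genes of at least 20 CPM; likeness over bulk libraries is not reported here. Intervals and floors (3 counts) cover counting error only.

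Same-numbered samples were taken as deviating together where each correlation of their deviations from group means was over 0.1. The main tests are not paired, and the replicate number enters only as the block, which takes the place of sex. The threshold was met in microglia for CLEAR with CLEAR_PS19 (0.183 to 0.365) and in all nuclei for WT with PS19 (0.352 to 0.448) and CLEAR with CLEAR_PS19 (0.453 to 0.610). These samples also share sex and library set, so the correlations do not show pairs of samples. Replicate 3 of PS19 with that of CLEAR_PS19, which share neither, was at -0.452 in microglia, though the block joins them.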

Additional observations from a re-analysis of the deposited data

Results flagged for a closer look

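Of 72 groups of 4 to 6 samples examined for a sample far from the others, 8 held such a sample; chance marks about 1 in 20 groups. In bulk CPM, Tyrobp in WT replicate 5 at 9 months was at 6.17 (others 8.42 to 9.08), Spp1 in PS19 replicate 3 at 4 months at 10.4 (others 3.36 to 5.24) and Cd9 in PS19 replicate 5 at 9 months at 124 (others 101 to 103). In CLEAR_PS19 microglia, Axl in replicate 3 was at 144 CPM (others 22.2 to 41.5) and Cd9 in replicate 4 at 223 (others 613 to 686). The shares of positive nuclei of the same libraries stood apart too, Axl at 11.4% (others 2.39% to 3.73%) and Cd9 at 17.0% (others 39.3% to 43.2%). The share with Cst7 in CLEAR replicate 3 was 0% (others 0.211% to 0.253%), which is 0 of 303 nuclei beside 1 nucleus in each of the others, a gap of 1 nucleus.

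The PS19 effect in bulk differed between 9 and 4 months for each gene by edgeR's interaction term, with log2 differences of 2.00 for Trem2, 2.34 for Tyrobp, 0.83 for Axl, 6.58 for Itgax, 5.83 for Cst7, 2.44 for Spp1, 1.81 for Gpnmb, 1.3 for Cd9 and 0.97 for Cd63.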

How the results depend on the processing

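All 9 genes stayed called in bulk PS19 against WT at 9 months and in PS19 between ages under each of the alternatives run, and 6 to 8 of 9 were called in PS19 against WT microglia. The CLEAR comparisons were less stable. Causes were not tested, except that fewer samples or genes enter some fits by construction. In the self-test changes of log2 size 1 were recovered in 37.8% of microglial genes.

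In bulk PS19 against WT at 4 months DESeq2 called 11 genes, and between ages in WT 76. With the replicate number as a block, 1515 genes were called between ages in PS19 (2788 without) and 19 in WT (0 without), and the difference in the PS19 effect on Gpnmb between 9 and 4 months was lost (adjusted p 0.0640); the bulk numbers do not pair the samples. In PS19 against WT microglia 1592 genes were called with no filter on low counts and 249 with microglia chosen by marker UMIs (1024 in the report).

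In CLEAR_PS19 against CLEAR microglia 72 genes were called. DESeq2 called 134, no filter 531, the replicate block 11, the library set in place of sex 209, no sex term 12, leaving out library set 3 (added after seeing the data) 19 and marker UMIs 6. Of the 9 genes, 1 was called with the block, 0 with no sex term, 1 without library set 3 and 1 with marker UMIs. In CLEAR against WT microglia no filter gave 48 genes, 1 of the 9 among them, and the block 2. There the Trem2 difference turned to -0.068 with the library set, and that of Cst7 to -0.052 without library set 3 and -0.64 with marker UMIs.

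In CLEAR_PS19 against PS19 microglia 2 genes were called. DESeq2 called 92 (1 of the 9), no filter 714 (5 of the 9), the block 9, no sex term 1, and the library set, leaving out library set 3 and marker UMIs 0 each. Tyrobp turned to -0.20 with the library set and -0.21 without library set 3, Cst7 to 0.20 with the block, Cd9 to 0.19 with the block and 0.042 with no sex term, and Cd63 to -0.24 with the library set, -0.29 without library set 3 and -0.033 with marker UMIs. For the difference of the CLEAR effects DESeq2 called 16 genes and no filter 208 (3 of the 9).

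Over all nuclei, PS19 against WT gave 2171 genes by DESeq2, 2923 with the library set and 802 with no sex term (1348 in the main design). CLEAR_PS19 against CLEAR gave 223 by DESeq2 (2 of the 9), 20 with no filter, 53 with the library set (1 of the 9) and 4 with no sex term (12). CLEAR against WT gave 163 with the replicate block (1), and CLEAR_PS19 against PS19 gave 275 by DESeq2 (2 of the 9), 5 with no filter, 946 with the block and 1 with the library set (3).

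Leaving out each replicate in turn, genes called ran from 1185 to 2110 for bulk PS19 against WT at 9 months, from 514 to 963 for its difference from 4 months and from 1749 to 3014 between ages in PS19, each lowest without PS19 replicate 5 at 9 months, and from 0 to 20 between ages in WT, highest without WT replicate 6 at 4 months. In microglia they ran from 493 to 1185 for PS19 against WT, from 9 to 82 for CLEAR_PS19 against CLEAR (1 to 5 of the 9), from 0 to 1 for CLEAR against WT, from 0 to 825 for CLEAR_PS19 against PS19 (0 to 4 of the 9) and from 0 to 37 for the difference of the CLEAR effects. In CLEAR against WT, Axl ran from -0.072 to 2.05 and Cst7 from -0.61 to 3.65 (on 4 CLEAR and 2 WT counts; the highest, without WT replicate 2, is against 0 WT counts, depends on the prior count and is no measure of size), and in CLEAR_PS19 against PS19, Cd9 from -0.14 to 0.20 and Cd63 from -0.038 to 0.37. Over all nuclei genes called ran from 206 (without WT replicate 2) to 1506 for PS19 against WT (2 to 7 of the 9), from 4 to 36 for CLEAR_PS19 against CLEAR, from 1 to 2 for CLEAR against WT and from 1 to 216 for CLEAR_PS19 against PS19 (0 to 3 of the 9).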
